A study of Homo sapiens with 8 samples.

Results

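Of the frizzled, ROR and LRP receptors that cells use to sense WNT ligands, 6 genes were examined here, *FZD8*, *FZD4*, *FZD10*, *ROR1*, *LRP5* and *LRP6*. They were taken by gene symbol from the array's annotation. Each was read by 1 transcript cluster, a group of probes summarised to 1 value. Thus 6 of 16377 transcript clusters and 6 of 4072 named genes are described. Of 22 other WNT receptors and co-receptors looked for, 2 had a named cluster in the values used. The study's supplement already reports *FZD8* as higher with *HIST1H1A* over-expression on these arrays, among genes of the epithelial-mesenchymal transition. It also reports *FZD7* higher and *FZD5* lower, and neither *FZD7* nor *FZD5* is described here. The set was chosen by family with results of these same arrays in view, among them the difference of *FZD8* between the groups. The values of the 6 genes are therefore given as a description, without p-values.

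The arrays compared 4 clonal isolates over-expressing *HIST1H1A*, the gene of the linker histone H1.1 (clones 2, 8, 9 and 10), with 4 isolates carrying a control vector (clones 3, 4, 8 and 9), to find which transcripts differ when the histone is in excess. All 8 are labelled as isolates of LNCaP, an androgen-responsive human prostate tumor cell line, and were made with lentivirus, selected with blasticidin and grown in the same way, and the promoter driving the insert is not given in the sources used here. Each isolate was hybridized to 1 array (Affymetrix, Human Gene 2.0 ST), and every value below is a log2 signal, on which 1 unit is a doubling. An isolate derives from few or single cells, so the spread within a group holds differences between clones as well as error of measurement, and these cannot be told apart.

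Frizzleds are seven-pass membrane proteins that bind WNT ligands through an extracellular cysteine-rich domain. In the canonical branch a frizzled and LRP5 or LRP6 are brought together by the ligand, which stops the destruction of beta-catenin. ROR1 is a single-pass receptor tyrosine kinase-like protein of the beta-catenin-independent branches, best known as a receptor for WNT5A. In the prostate, WNT signals act in bud formation during development, and frizzled and ROR receptors have been followed in prostate tumors.

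Log2 signals of the 8 arrays had medians of 3.246 to 3.297, and the median of all values, 3.27, is used here to mark low signals. Arrays correlated across clusters at r = 0.964 to 0.977 within *HIST1H1A* clones, 0.932 to 0.967 within control clones and 0.916 to 0.948 between the groups. The labelled cell line was checked with luminal prostate genes typical of LNCaP. Of 19 listed, 5 had a named cluster, *FOLH1*, *EHF*, *KRT8*, *KRT18* and *CREB3L4*. All 5 were lower in *HIST1H1A* clones at an adjusted p under 0.05 in limma. By that rule 2.02% of all clusters were lower, and 12.5% of named genes passed in either direction. The mean log2 signal of the 5 luminal genes lay at 4.584 to 4.641 in *HIST1H1A* clones and at 7.325 to 7.896 in control clones. *FOLH1* lay between 2.41 and 2.96 in *HIST1H1A* clones, below the median of all values, and between 8.14 and 9.25 in control clones. In these genes the *HIST1H1A* clones went against the labelled line and the control clones did not. Of 6 measured genes high in PC-3 or HEK293 cultures, *NID1*, *JAK1*, *VIM*, *CD44* and *ZEB1* were higher in *HIST1H1A* clones. *PAX2* had a difference of 0.22 and did not pass. The mean of the 6 lay at 6.196 to 6.417 in *HIST1H1A* clones and at 3.764 to 3.823 in control clones. *CD44* averaged only 3.703 in *HIST1H1A* clones, where the median of all values was 3.27. Both this list and the luminal list were chosen with earlier results of these arrays known. The study itself reports *JAK1*, *VIM* and *ZEB1* as higher with *HIST1H1A* over-expression. The direction of the genes of either list is therefore not independent evidence of the origin of the isolates. Fibroblast markers (0 of 4 passed, *DCN* and *LUM* below the median on all 8 arrays) gave no call, and of 7 leukocyte markers only *LCP1* passed, lower in *HIST1H1A* clones. Of the basal markers, *CD44* passed and *KRT5* did not. These shifts ran with the same 4 clones as every difference below, so over-expression and the state or origin of the isolates cannot be told apart, and the part of these markers in the receptor values was not tested.

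The sequences at the start sites of 2 of the frizzled genes are shown because *FZD8* was the receptor with the large difference and *FZD4* a frizzled without one. Each runs from 250 bases before to 50 bases after the start of the gene, on the strand of the gene, from RefSeq with build GRCh38.p14. Capitals mark TATAAA and CCAAT boxes, of which CCAAT was found here on the other strand and reads ATTGG.
FZD8, chr10:35642247-35642546, minus strand: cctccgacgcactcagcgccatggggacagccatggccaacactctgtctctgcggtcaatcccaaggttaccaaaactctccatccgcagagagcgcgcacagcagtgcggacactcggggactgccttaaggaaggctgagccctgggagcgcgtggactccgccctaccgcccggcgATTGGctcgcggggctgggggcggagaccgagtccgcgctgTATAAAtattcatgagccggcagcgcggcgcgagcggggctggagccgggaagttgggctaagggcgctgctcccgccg
FZD4, chr11:86955346-86955645, minus strand: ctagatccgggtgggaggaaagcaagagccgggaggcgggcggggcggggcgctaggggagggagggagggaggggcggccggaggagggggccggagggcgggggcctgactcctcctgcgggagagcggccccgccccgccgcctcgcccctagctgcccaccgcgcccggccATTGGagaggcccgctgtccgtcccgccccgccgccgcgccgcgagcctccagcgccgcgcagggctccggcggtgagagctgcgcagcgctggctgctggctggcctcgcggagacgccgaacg
The *FZD8* stretch held 1 TATAAA, beginning 29 bases before the start, and 1 CCAAT, beginning 70 bases before it. The *FZD4* stretch held no TATAAA and 1 CCAAT, 75 bases before the start. Over 35116 such stretches of the RefSeq table, 11.5% held TATAAA and 34.6% held CCAAT on either strand. *ROR1* had 1 CCAAT, 47 bases before its start, and *LRP5* neither motif. The TCF/LEF motif (AACAAAG or ATCAAAG, or with a leading T in place of A, TACAAAG or else TTCAAAG, on either strand) was in none of the 4 stretches that could be matched and in 13.8% of all stretches. GGGCGG occurred 3 times in *FZD8*, 6 times in *FZD4*, 3 times in *LRP5* and not in *ROR1*, and 45.0% of all stretches held it. No match overlapped one of another motif. The 4 stretches held more CG pairs than the median over all stretches, 14, with 31 in *FZD8*, 40 in *FZD4*, 29 in *ROR1* and 52 in *LRP5*. The share of all stretches with fewer was 79.3% for *FZD8*, 92.4% for *FZD4*, 75.8% for *ROR1* and 99.2% for *LRP5*. *FZD10* and *LRP6* are named only. These matches describe the letters in a fixed window, and no binding was measured.

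Of the 6 receptors examined, *FZD8* was the one whose groups lay apart. Its log2 signal was 8.40, 8.47, 7.91 and 7.88 in *HIST1H1A* clones 2, 8, 9 and 10, against 4.46, 4.30, 4.66 and 3.97 in control clones 3, 4, 8 and 9. All 4 *HIST1H1A* clones lay above all 4 control clones, with a gap of 3.22 between the lowest of the first and the highest of the second. The means were 8.16 ± 0.31 in *HIST1H1A* clones and 4.35 ± 0.29 in control clones (SD, n = 4 each), a difference of 3.81 (standard error 0.20), or 14.1-fold. Both groups lay above the median of all values. A larger absolute difference was found in 0.116% of clusters, which is a description, as the set was chosen with this difference known. The difference rested on no single array, since it was 12.9-fold to 15.1-fold when any 1 of the 8 was left out.

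*FZD4*, a frizzled that also serves as the receptor of norrin with *LRP5* in retinal vessels, did not separate the groups. It was at 5.49, 5.08, 4.92 and 5.27 in *HIST1H1A* clones 2, 8, 9 and 10, against 4.50, 5.04, 5.37 and 5.998 in control clones 3, 4, 8 and 9. The *HIST1H1A* values all lay inside the range of the controls, whose lowest was clone 3 and whose highest was clone 9. The difference was -0.04 (standard error 0.29), and it ran from -0.28 without control clone 3 to 0.22 without control clone 9. It was also above 0 without control clone 8 (0.007) or without *HIST1H1A* clone 9 (0.049), so that its sign was not settled.

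*FZD10* gave signals near the median of all values in both groups. It was at 3.15, 3.54, 3.50 and 3.57 in *HIST1H1A* clones 2, 8, 9 and 10 and at 3.57, 3.46, 4.05 and 3.12 in control clones 3, 4, 8 and 9. The highest and the lowest value both came from control clones, 8 and 9, and the difference was -0.11 (standard error 0.20), or 0.06 without control clone 8. At this signal a low level and none cannot be told apart, because no background level was used.

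*ROR1* was the receptor with the next largest difference, but its groups overlapped. Its log2 signal was 6.39, 6.11, 6.56 and 6.98 in *HIST1H1A* clones 2, 8, 9 and 10, against 4.61, 5.62, 5.71 and 6.46 in control clones 3, 4, 8 and 9. Control clone 9 lay above *HIST1H1A* clones 2 and 8, and the *HIST1H1A* clone was the higher in 14 of the 16 pairs across groups. The means were 6.51 ± 0.37 in *HIST1H1A* clones and 5.60 ± 0.76 in control clones (SD, n = 4 each), a difference of 0.91 (standard error 0.36), or 1.88-fold. Control clone 3, the lowest of the 8, carried much of it. Without it the difference was 0.58 (1.49-fold), and without control clone 9 it was 1.20 (2.29-fold).

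The co-receptors *LRP5* and *LRP6*, which share the frizzleds as partners and are alike in structure, had groups that overlapped. *LRP5* was at 7.22, 7.62, 7.52 and 7.47 in *HIST1H1A* clones 2, 8, 9 and 10, against 7.74, 7.36, 6.85 and 6.86 in control clones 3, 4, 8 and 9. Control clone 3 was the highest of all, and the other 3 controls lay below 3 of the *HIST1H1A* clones. The difference was 0.25 (standard error 0.21), or 1.19-fold, and ranged from 0.13 without control clone 8 to 0.43 without control clone 3. *LRP6* was at 6.82, 6.35, 6.52 and 6.91 in *HIST1H1A* clones 2, 8, 9 and 10, against 5.54, 6.30, 5.81 and 6.94 in control clones 3, 4, 8 and 9. Control clone 9 was the highest of the 8 and the other 3 controls were the lowest. The difference was 0.50 (standard error 0.29), or 1.42-fold, and it was 0.30 without control clone 3 and 0.77 without control clone 9.

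**Figure D1:**
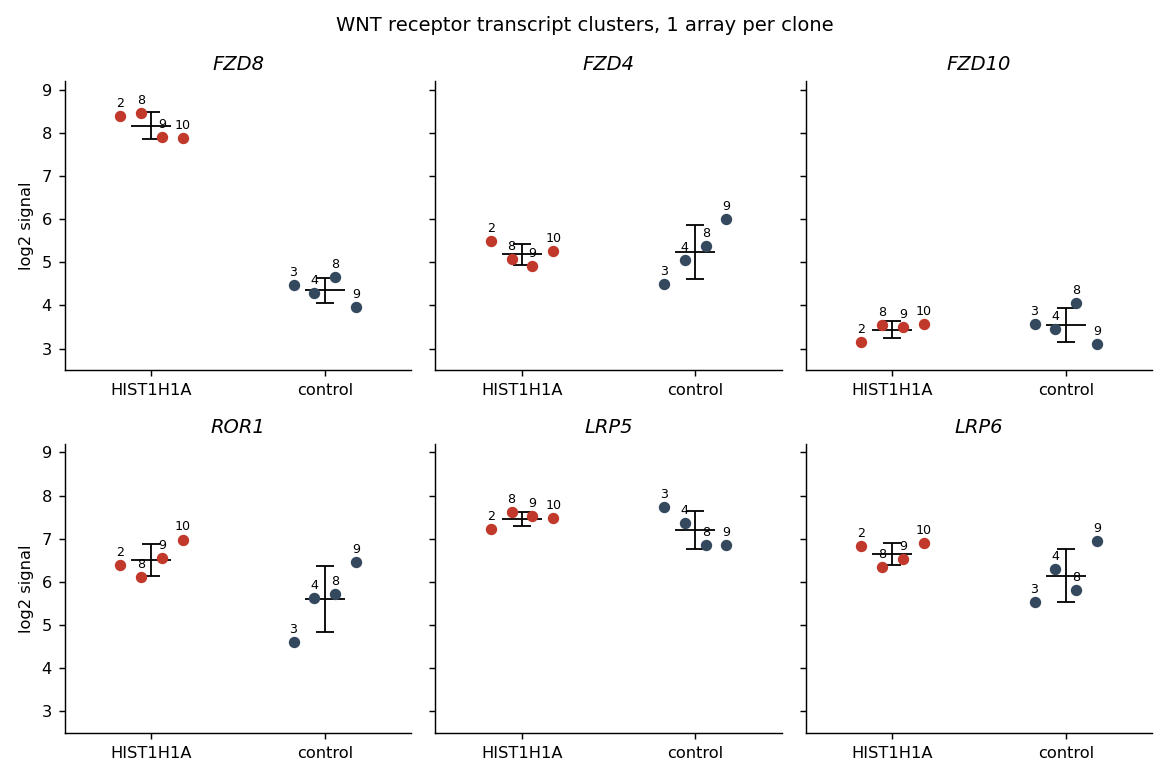
Log2 signal of each receptor in every clone, with 1 point per array labelled by clone number, and the mean and SD of each group of 4 as a black bar. The *FZD8* points of the *HIST1H1A* clones lie at 7.88 to 8.47 and those of the control clones at 3.97 to 4.66, while the groups of the other 5 receptors overlap.

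Of the 6 receptors, 1 passed an adjusted p under 0.05 with a fold over 2 in limma, where 3.77% of all clusters did (2.39% higher and 1.38% lower). The same 1 had groups that did not overlap, where 11.1% of all clusters did (6.47% higher and 4.62% lower) and 20.1% of named genes. As the genes were chosen with this contrast known, nothing is read from these counts. The difference was above 0 in 4 of the 6, with a median of 0.38 over the 6 and of -0.01 over all clusters.

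**Figure D2:**
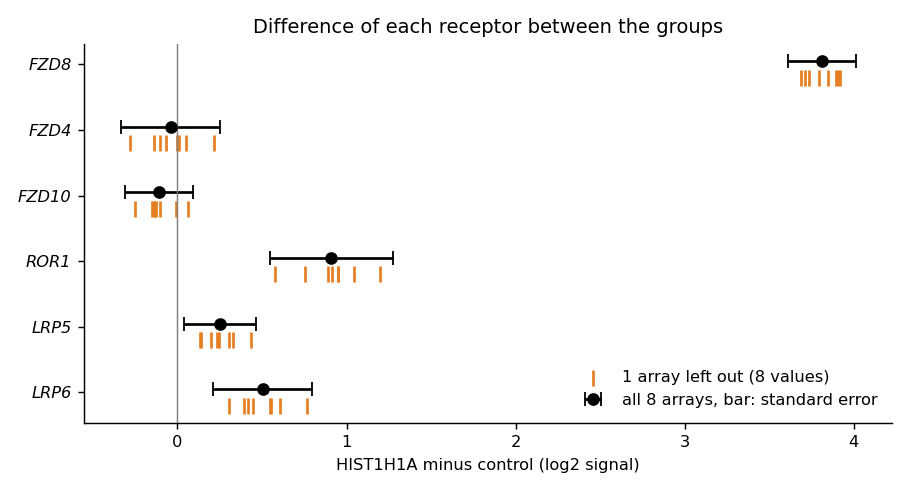
Difference of each receptor, *HIST1H1A* minus control in log2 signal, with the standard error as a bar (black points) and the 8 values with 1 array left out (orange marks). *FZD8* stays between 3.69 and 3.92, *ROR1* runs from 0.58 to 1.20, and *FZD4* and *FZD10* fall on both sides of 0.

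Among control clones the receptors spread more than among *HIST1H1A* clones. The range over control clones exceeded that over *HIST1H1A* clones in 6 of 6 receptors, which was also so in 64.8% of all clusters. It was 0.57 in *HIST1H1A* clones and 1.495 in control clones for *FZD4*. For *ROR1* it was 0.88 in *HIST1H1A* clones and 1.85 in control clones, and for *LRP6* 0.55 in *HIST1H1A* clones and 1.40 in control clones. For *FZD8* the ranges were closer, at 0.59 in *HIST1H1A* clones and 0.69 in control clones.

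These 3 receptors also shared the extremes among the controls. Clone 9 was the highest control and clone 3 the lowest for *FZD4*, *ROR1* and *LRP6*, a pattern found in 11.6% of all clusters. Clone 9 exceeded clone 3 by 1.495 in *FZD4*, 1.85 in *ROR1* and 1.40 in *LRP6*. *LRP5* ran the other way, with clone 9 below clone 3 by 0.88, and so did *FZD8* and *FZD10*, by 0.49 and 0.45. In *HIST1H1A* clones *ROR1* and *LRP6* were both highest in clone 10 and lowest in clone 8, whereas *FZD4* was highest in clone 2. Control clones 3 and 9 had mean correlations of 0.947 and 0.943 with the other controls, where clones 4 and 8 had 0.961 and 0.943. With 1 array per clone, a difference between cells and a difference between hybridizations cannot be told apart here.

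**Figure D3:**
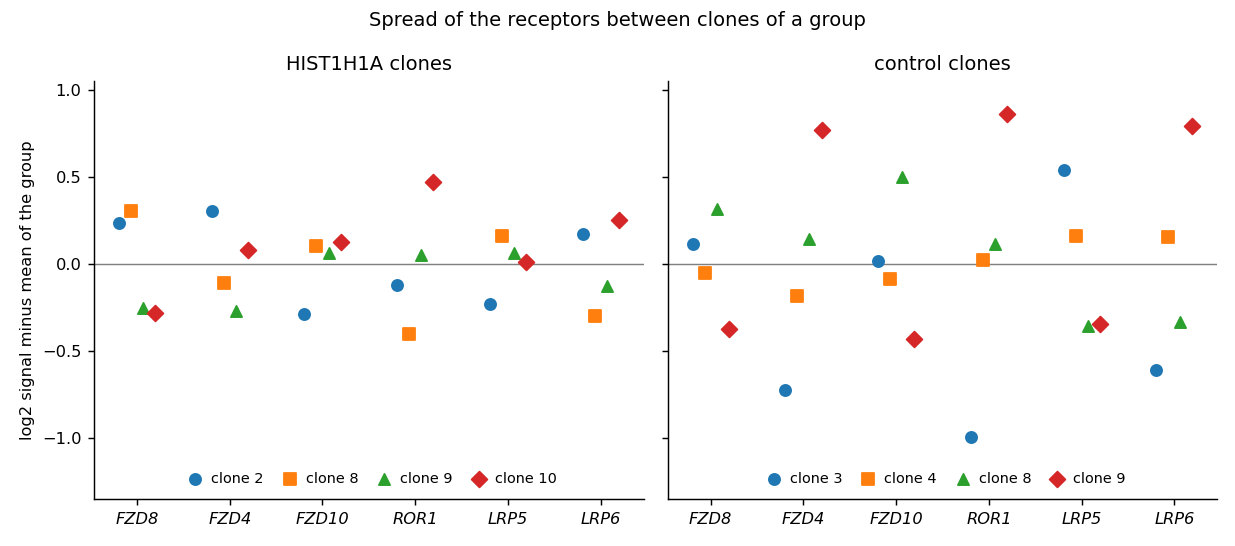
Log2 signal of each receptor minus the mean of its group, for the 4 *HIST1H1A* clones (left) and the 4 control clones (right). Among controls, clone 9 (diamonds) is highest and clone 3 (circles) lowest for *FZD4*, *ROR1* and *LRP6*, and clone 3 is highest for *LRP5*.

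The rest of the pathway was read from 9 lists of WNT genes and 1 list of LDL receptor family genes, with 216 genes in all, of which 37 were measured besides the 6 receptors. Of these 37, 9 were higher and 2 lower in *HIST1H1A* clones at an adjusted p under 0.05 in limma, and 26 did not pass. This is 29.7%, where 12.5% of named genes and 5.79% of all clusters (3.77% higher and 2.02% lower) passed. Their median difference was 0.21, against 0.03 over named genes. The lists were written with earlier results of these arrays known, so the count is not independent evidence of a direction. Measured here means that a gene had a named cluster in the values used, where 12130 of 16377 clusters carried no gene symbol. None of the 19 listed WNT ligands had one. The study's supplement does report *WNT5A* from these arrays, higher with *HIST1H1A* over-expression.

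Among cell surface partners, *GPC6* and *SDC3*, heparan sulfate carriers that can hold WNT ligands, had differences of 0.66 and -0.11 and did not pass. *LRP4*, a relative of the LRP5 and LRP6 co-receptors that serves agrin at the neuromuscular junction and binds the WNT inhibitor sclerostin, rose. It was at 5.88, 5.83, 5.35 and 5.67 in *HIST1H1A* clones 2, 8, 9 and 10, against 4.42, 4.14, 3.69 and 4.08 in control clones 3, 4, 8 and 9. No clone of one group entered the range of the other, and the difference was 1.60 (standard error 0.18), or 3.04-fold (adjusted p = 0.0014 from limma). The endocytic receptors *LRP1* and *LRP10* differed by 0.94 and -0.23 and did not pass (adjusted p = 0.11 for *LRP1* and 0.77 for *LRP10*, limma). Among R-spondin genes, which control how long frizzleds stay at the surface, the receptor *LGR5* rose 7.90-fold over a control mean of 3.09, below the median of all values. *LGR4*, *LGR6* and *RSPO1* had differences of 0.31, 0.28 and 0.21 and did not pass.

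Of 7 measured genes of ligand secretion and extracellular inhibition, *WLS*, which carries WNT ligands to the surface, rose 7.22-fold (adjusted p = 0.0037 from limma). The other 6 did not pass. They were the secreted inhibitors *WIF1*, *DKK1*, *DKK3*, *SFRP5* and *DRAXIN*, with differences between -0.06 and 0.56, and *TRABD2B*, the gene of a protease that inactivates WNT ligands, with a difference of 1.18 (adjusted p = 0.12 from limma). Of these 6, only *WIF1* had groups that did not overlap, with a gap of 0.066 and a difference of 0.56 (adjusted p = 0.078 from limma). In the cytoplasm, *BTRC*, the ubiquitin ligase subunit that recognises phosphorylated beta-catenin, was at 7.501, 6.96, 7.53 and 7.58 in *HIST1H1A* clones 2, 8, 9 and 10, against 5.02, 5.95, 5.52 and 6.25 in control clones 3, 4, 8 and 9. The groups did not overlap and the rise was 3.27-fold (adjusted p = 0.0068 from limma). *FRAT1*, *FRAT2* and *CAPRIN2* had differences between -0.11 and 0.16 and did not pass.

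Of 6 nuclear partners of beta-catenin, *BCL9L*, which links it to PYGO proteins, was 1.95-fold lower in *HIST1H1A* clones (adjusted p = 0.023 from limma), a call lost in 6 of 14 alternatives (highest adjusted p = 0.079, limma). *BCL9L* has 2 clusters, of which the brighter is given. With the clusters of each gene averaged, 1 of the 37 list genes was lower, where 2 were before. *BCL9*, *PYGO2*, *CTBP2*, *PRDM16* and *LDB1* did not pass. Of 9 genes known as beta-catenin targets in various tissues, 5 rose, 1 fell and 3 did not pass. The AP-1 subunit *JUN* rose 4.70-fold (adjusted p = 0.0021 from limma) and the homeobox factor *PROX1* 2.52-fold (adjusted p = 0.00073 from limma), beside *LGR5*, already named. The adhesion receptor *CD44* rose 1.90-fold over a control mean of 2.78, below the median of all values, and the transcription factor *KLF5* 1.60-fold. The *KLF5* call was lost in 8 of 14 alternatives (highest adjusted p = 0.10, limma), and that of *CD44* without *HIST1H1A* clone 9 (adjusted p = 0.053 from limma). *CCND1*, the gene of cyclin D1, fell and was 1.77-fold lower (adjusted p = 0.012 from limma), while *DKK1*, *FOSL1* and *ASCL2* had differences of 0.30, 0.15 and -0.10.

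In the beta-catenin-independent branches, to which *ROR1* belongs, 4 genes of planar cell polarity and JNK signaling were measured. *PRICKLE1*, a cytoplasmic core component of planar polarity, was at 6.41, 6.40, 6.65 and 6.49 in *HIST1H1A* clones 2, 8, 9 and 10, against 4.73, 4.92, 4.12 and 4.08 in control clones 3, 4, 8 and 9. It rose 4.07-fold with no overlap (adjusted p = 0.00070 from limma), and *JUN*, already named, is the other that rose. The formin *DAAM1* and the GTPase *RHOU* differed by -0.74 and -0.70 and did not pass (adjusted p = 0.61 for *DAAM1* and 0.59 for *RHOU*, limma), and their control clones had SDs of 1.08 and 1.046. Of 31 genes listed for the WNT/calcium branch, only *CAMK2G* had a named cluster here, with a difference of -0.03, so the branch as a whole was not read. The study's pathway analysis of these arrays reports the WNT/Ca+ pathway among those affected.

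**Figure D4:**
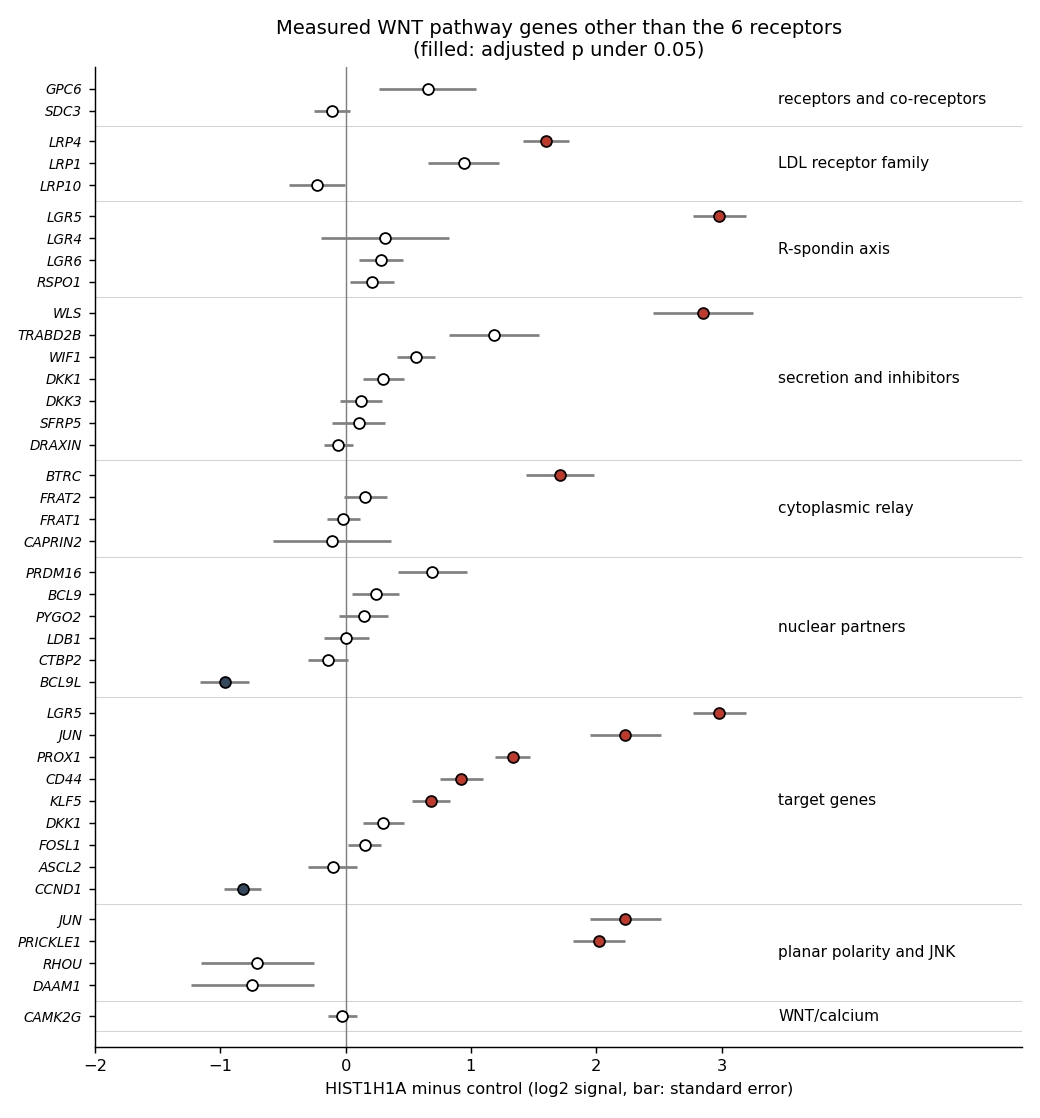
Difference of 37 further WNT pathway genes, *HIST1H1A* minus control in log2 signal, by list, with the standard error as a bar and filled points for an adjusted p under 0.05 (red higher, blue lower). *LGR5*, *DKK1* and *JUN* belong to more than 1 list, and the 9 genes that rose reach from 0.68 (*KLF5*) to 2.98 (*LGR5*).

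The nearest named measured genes on each receptor's chromosome were compared with it, to see whether its difference was shared in the region. Up to 3 named measured genes on each side of each receptor were taken in the order of the RefSeq gene table. Most are not adjacent to the receptor, since 0 to 41 other genes of that table lie between. Of these 36 neighbours, 1 was higher, 2 were lower and 33 did not pass, or 8.33% passed, where 12.5% of named genes did. Around *FZD8* on chromosome 10 none of 6 passed. With 7, 12 and 14 genes between on one side, the cyclin *CCNY* had a difference of -0.14 (standard error 0.14), the transcription factor *CREM* 0.15 and the cullin *CUL2* 0.15. With 16, 34 and 41 genes between on the other side, *ANKRD30A* had 0.02, *ZNF248* 0.25 and *ZNF25* -0.44. These 6 lay between -0.44 and 0.25, where *FZD8* was at 3.81.

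None of 6 neighbours passed around *FZD4* or *FZD10*. The transcript that starts beside *FZD4* in the opposite direction, *FZD4-DT*, had log2 signals of 2.81 ± 0.09 in *HIST1H1A* clones and 2.83 ± 0.22 in control clones (SD, n = 4 each), below the median of all values. *FZD10-AS1*, the antisense partner of *FZD10*, was likewise low, at 2.93 ± 0.07 in *HIST1H1A* clones and 2.98 ± 0.22 in control clones (SD, n = 4 each).

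On chromosome 1, 1 of the 6 neighbours of *ROR1* passed. This was *CACHD1*, which had a much larger difference than *ROR1*, with 11 genes between them. *CACHD1*, which in zebrafish binds frizzled receptors, was at 7.76, 7.52, 7.74 and 7.83 in *HIST1H1A* clones 2, 8, 9 and 10, against 3.12, 3.03, 3.03 and 3.69 in control clones 3, 4, 8 and 9. It rose 22.5-fold (adjusted p = 7.2e-06 from limma), against a control mean of 3.22 below the median of all values. *JAK1*, beyond the 3 neighbours on that side, averaged 9.12 ± 0.31 in *HIST1H1A* clones and 4.27 ± 0.28 in control clones (SD, n = 4 each). It comes from the PC-3 or HEK293 list and not from the neighbour rule, and it enters none of the neighbour counts. For the other receptors no gene beyond the rule is given. On the other side the metabolic enzyme *PGM1* had groups that did not overlap and a difference of 1.22 (standard error 0.32), which did not pass (adjusted p = 0.066 from limma). *UBE2U*, between *ROR1* and *CACHD1*, had a difference of 0.00 at a mean of 2.18 in both groups.

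Among the neighbours of each co-receptor, 1 passed. With 7 genes between it and *LRP5*, *CPT1A*, the enzyme that admits fatty acids to mitochondria, was 1.68-fold lower (adjusted p = 0.012 from limma). With 5 genes between it and *LRP6*, the membrane protein gene *MANSC1* was at 5.15, 5.42, 5.09 and 5.46 in *HIST1H1A* clones 2, 8, 9 and 10, against 6.56, 7.08, 7.03 and 7.18 in control clones 3, 4, 8 and 9, or 3.21-fold lower (adjusted p = 0.00059 from limma). *LRP5* and *LRP6* themselves were higher in *HIST1H1A* clones by 0.25 and 0.50 with overlapping groups.

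**Figure D5:**
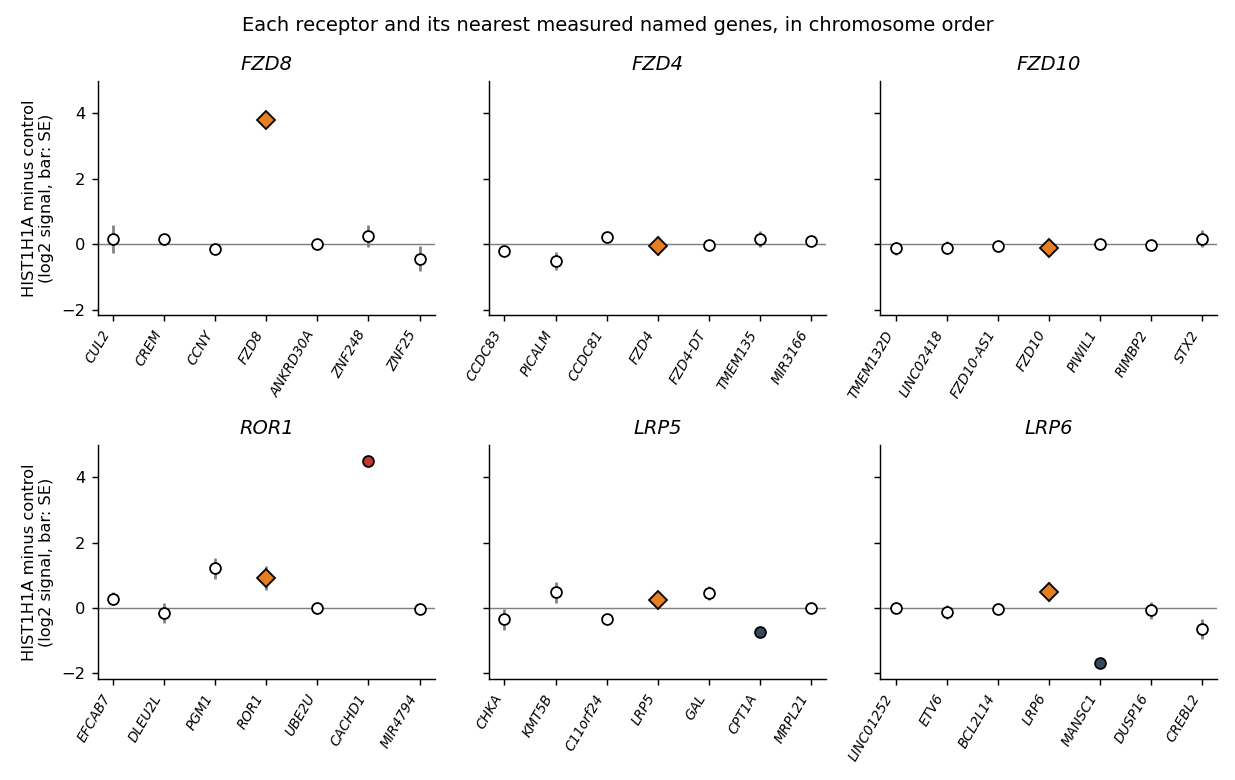
Difference of each receptor (orange diamond) and of up to 3 named measured genes on each side in chromosome order, *HIST1H1A* minus control in log2 signal with the standard error as a bar, filled red or blue where a neighbour was higher or lower at an adjusted p under 0.05. *FZD8* stands at 3.81 among neighbours between -0.44 and 0.25, while in the panel of *ROR1* at 0.91 stands *CACHD1* at 4.49.

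The named genes most like each receptor were sought by the root mean square difference between profiles over the 8 arrays, each centred on its own mean, for receptors that ranged over more than 1 log2 unit. Nearest to *FZD8* were *KIRREL1*, a cell adhesion gene, at a root mean square difference of 0.26, *DZIP1*, a zinc finger gene of cilia, at 0.36, and the long non-coding RNA *LINC02381* at 0.39. Their own differences between the groups were 3.46, 3.32 and 3.97. Nearest to *ROR1* were *LPGAT1*, *KNTC1* and *EVI5* at 0.19 to 0.20, with differences of 0.70 to 1.08. Nearest to *FZD4* were *DCLRE1A*, *ZCRB1* and *VPS26A* at 0.13 to 0.16, and nearest to *LRP6* *KMT5B*, a neighbour of *LRP5*, at 0.079, followed by *CLIC4* and *LCOR* at 0.13. This likeness is a description over 8 arrays in 2 groups. By deviations from the group means, none of the 3 nearest genes of *FZD8*, *FZD4* or *ROR1* stayed among the 3 nearest, and 1 of those of *LRP6* did (*KMT5B*).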

How the data were processed

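Total RNA of 4 *HIST1H1A* and 4 control clonal isolates labelled LNCaP was hybridized to Human Gene 2.0 ST arrays (Affymetrix). The values used are log2 signals, 1 for each transcript cluster, as the authors deposited them. Partek was named for the analysis. Its version and the summarization and normalization steps were not given in the sources used here, and the values were fitted as deposited. Of 16377 clusters, 4247 carried 1 gene symbol (4072 genes), 0 several and 12130 none here. All 4247 symbols were checked through gene identifiers in RefSeq, of which 4 of 6 receptors matched a promoter sequence. Each receptor was read by 1 cluster, and other genes with several by their brightest. The strand read was not checked. *HIST1H1A* itself was not analysed here.

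Groups were compared with limma 3.58.1 (lmFit, eBayes) in R 4.3.3 over all 8 arrays and all clusters with Benjamini-Hochberg adjustment, and rose or fell is written at an adjusted p under 0.05. The receptors and lists were chosen with earlier results of these data known. Named genes were the 6 receptors, measured genes of the receptor, LDL receptor, R-spondin, luminal and PC-3 or HEK293 lists, up to 3 rises and 3 falls of each other WNT list, up to 3 neighbours on each side and the 3 genes of likest profile. Values of genes of the WNT lists that did not pass are given as well. The fit was tested on simulated data. Alternatives were the methods' test (equal variances, after the analysis of variance named in the study's supplementary sheet), trend and robust settings, other normalizations, filters, gene means, a block on clone number and leaving out each array. Nothing in the labels says that clones came from separate transductions, so p-values measure the spread between these isolates. The number of arrays limits the precision.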

Additional observations from a re-analysis of the deposited data

Results flagged for a closer look

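In 12 of 202 groups of 4 clones, over the receptors, list genes and neighbours, 1 clone stood apart from the other 3, where chance gives about 10.1. Among the receptors this was *FZD10* in *HIST1H1A* clone 2, at a log2 signal of 3.15 where the nearest other *HIST1H1A* clone was at 3.50. Among *HIST1H1A* clones, *BTRC* stood at 6.96 in clone 8 (nearest 7.501), *LINC01252* at 3.55 in clone 8 (nearest 3.31), *DRAXIN* at 3.83 in clone 9 (nearest 3.54), *C11orf24* at 6.46 in clone 2 (nearest 6.18) and *SDC3* at 5.44 in clone 2 (nearest 5.86). Among control clones, *ASCL2* stood at 5.27 in clone 3 (nearest 4.58), *LGR6* at 4.28 in clone 3 (nearest 3.70), *LINC02418* at 4.28 in clone 3 (nearest 3.69), *CACHD1* at 3.69 in clone 9 (nearest 3.12), *ZNF25* at 5.08 in clone 9 (nearest 3.56) and *MIR3166* at 2.14 in clone 4 (nearest 2.30).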

How the results depend on the processing

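The difference of *FZD8* lay at 3.69 to 3.92 on the log2 scale under the alternatives with 7 or more arrays. The 618 changed clusters became 397 with the methods' test and 388 over named clusters only, where fewer clusters were tested, and between 480 and 672 on leaving out any 1 array. The 948 clusters past the adjusted p alone became 552 with the methods' test and between 602 and 963 on leaving out any 1 array, lowest without *HIST1H1A* clone 9. The cause was not tested. The numbers 8 and 9 name a clone in each group, and the labels do not say whether they pair them. The deviations of same-numbered arrays correlated at 0.070 and -0.22, and so few pairs cannot decide it. On those 4 arrays alone, limma with a replicate block called 0 clusters under either rule (2103 at an unadjusted p under 0.05), 0 of 37 WNT list genes (15 unadjusted) and 0 of 36 neighbours (7 unadjusted). Without the block it called 75, 75, 4 and 1. On these 4 arrays, with or without the block, *FZD4* had a difference of -0.69, *ROR1* 0.25 and *LRP5* 0.71. Of 14 list genes and neighbours that passed, 11 did so under each of the 14 alternatives with 7 or more arrays, and none changed direction in any of 16. By deviations from the group means, the 3 nearest genes shared were 0 for *FZD8*, 0 for *FZD4*, 0 for *ROR1* and 1 for *LRP6*.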
